A study of Mus musculus with 45 samples.

Results

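Myc and the genes of the MAX network were followed through 45 libraries of polyadenylated RNA from mouse mammary tumour lines. The members were picked by gene symbol: Myc, Mycn, Max, Mxd1, Mxi1, Mxd3, Mxd4, Mnt, Mlx and Mlxip, which are 10 of the 28454 genes in the count table. The lines in control medium were MYAZ16.1e, MYAZ12.3i and MYAZ6.6g, taken from mammary tumours of MMTV-cMYC mice (the MYAZ subtype), Myc310, from a mouse of that kind with multiple tumours, LM1, LM2 and LM3, recovered from lungs after Myc310 cells were placed in the mammary fat pad (the LM subtype), LM1-LM, LM2-LM and LM3-LM, from lungs after injection of LM1 (the LM-LM subtype), and MYAZ12.3i NDI1, a MYAZ12.3i derivative carrying the yeast NADH dehydrogenase NDI1. MYAZ16.1e, Myc310, LM1 and LM1-LM were also cultured for 6 h without cysteine and cystine, and each of the 15 groups had 3 cultures. The tumours arose in female mice with the Tg(MMTV-MYC)141-3Led transgene, in which the mammary tumour virus promoter drives Myc in the mammary epithelium, so that the tumour cells of every group, controls included, carry it. The hosts of fat pad injections were young virgin FVB/NJ females, wild type per the methods. The transgene is built from mouse Myc sequence and its transcripts and those of the endogenous gene were counted together. MYAZ lines and Myc310 were grown from mammary tumours. For LM lines the whole lungs of the hosts were digested and cultured, so that lung cells of the host entered these cultures at the start. The LM and LM-LM lines descend from Myc310, and differences between subtypes include those between founding cells. The series calls the cultures of a line technical replicates, and p-values of the deprivation and NDI1 comparisons measure only the spread between such cultures. Those of the subtype model mix that spread with the spread between lines. Those from counts summed per line or from line means rest on the spread between lines.

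MYC, the transcription factor encoded by Myc, binds E-box DNA only as a dimer with MAX. MAX also pairs with MXD1, MXI1, MXD3, MXD4 and MNT, which recruit SIN3-histone deacetylase complexes to the same sites and oppose MYC, and MNT, MXD1 and MXD4 can also pair with MLX. MLX is the partner of MLXIP (MondoA), which responds to glycolytic intermediates and drives Txnip and Arrdc4. Myc, the most strongly expressed of these genes here, fell in 3 of the 4 deprived lines. It fell more in LM1 than in Myc310 and more again in LM1-LM, a last step that missed the threshold without replicate 2. The partners did not follow Myc as a block: Max fell little, Mxd3 fell in every line, and Mxd1 rose in every line.

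Positions of the genes are those of the GENCODE annotation on GRCm38, the mouse build in the submitters' processing notes. Myc spans chr15:61985391-61990374 on the plus strand and overlaps no other annotated gene. Max spans chr12:76937269-76962201 and Mycn chr12:12936093-12941914, both on the minus strand. The MXD genes are at chr6:86647042-86669161 (Mxd1, minus strand), chr19:53310518-53375810 (Mxi1, plus strand), chr13:55325168-55329823 (Mxd3, minus strand) and chr5:34173883-34187720 (Mxd4, minus strand). Mnt is at chr11:74830920-74845725, Mlx at chr11:101087277-101092207 and Mlxip at chr5:123394798-123457932, all on the plus strand. Max, Mxd1 and Mlxip overlap non-coding or predicted genes on their own strand, and Mxi1, Mxd3, Mxd4, Mlx and Mlxip overlap genes on the opposite strand (Prelid1 for Mxd3 and Psmc3ip for Mlx). The kit kept strand but the strand setting of the counting is not given in the sources used here, so reads of such partners may be shared.

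The network feeds back on itself through the E-box CACGTG, which reads the same on both strands, and the promoters were therefore searched for it. RefSeq promoters of build GRCm38.p6, from 250 bases before to 50 after the transcript start, were at hand for 9 of the 10 members (11 promoters, 3 of them for Mxi1), and not for Myc. Max, Mnt, Mxd4 and Mlx held 1 E-box each. Of the 27025 genes in the same table, 8.09% had an E-box in a promoter of that length. The promoters with an E-box are printed together with those of Mxd1 and Mxd3, the members whose RNA moved furthest up and down under deprivation and whose windows hold none. Capitals mark the E-box. The element TGATGNAAT, searched on both strands as the motif of the ATF4 and C/EBP response, was in none of the members' promoters and in 1.08% of all genes, with no overlap of the motifs in the members.
Max promoter (chr12:76962199-76962498, minus strand): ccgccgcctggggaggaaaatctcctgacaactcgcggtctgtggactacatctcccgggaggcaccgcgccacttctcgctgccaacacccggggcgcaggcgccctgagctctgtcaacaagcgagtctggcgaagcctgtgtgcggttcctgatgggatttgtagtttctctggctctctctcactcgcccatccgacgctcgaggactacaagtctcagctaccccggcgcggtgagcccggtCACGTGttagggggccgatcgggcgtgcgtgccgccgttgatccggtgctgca
Mnt promoter (chr11:74830674-74830973, plus strand): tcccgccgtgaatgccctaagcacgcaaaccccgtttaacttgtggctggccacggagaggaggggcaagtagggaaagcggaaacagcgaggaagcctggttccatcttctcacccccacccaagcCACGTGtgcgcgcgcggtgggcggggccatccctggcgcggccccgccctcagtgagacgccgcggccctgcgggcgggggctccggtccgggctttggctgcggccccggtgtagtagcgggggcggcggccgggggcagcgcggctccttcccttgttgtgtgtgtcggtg
Mxd4 promoter (chr5:34187661-34187960, minus strand): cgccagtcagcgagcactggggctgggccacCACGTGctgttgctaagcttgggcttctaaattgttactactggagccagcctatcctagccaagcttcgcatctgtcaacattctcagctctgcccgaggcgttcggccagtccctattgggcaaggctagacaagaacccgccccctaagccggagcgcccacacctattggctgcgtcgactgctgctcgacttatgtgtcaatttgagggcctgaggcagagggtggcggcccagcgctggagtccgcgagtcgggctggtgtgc
Mlx promoter (chr11:101087040-101087339, plus strand): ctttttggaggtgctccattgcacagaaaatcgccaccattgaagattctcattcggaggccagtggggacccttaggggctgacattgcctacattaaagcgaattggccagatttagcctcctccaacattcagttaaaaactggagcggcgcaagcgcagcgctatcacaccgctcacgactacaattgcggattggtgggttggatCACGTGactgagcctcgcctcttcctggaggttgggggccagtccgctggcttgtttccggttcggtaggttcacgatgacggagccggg
Mxd1 promoter (chr6:86669110-86669409, minus strand): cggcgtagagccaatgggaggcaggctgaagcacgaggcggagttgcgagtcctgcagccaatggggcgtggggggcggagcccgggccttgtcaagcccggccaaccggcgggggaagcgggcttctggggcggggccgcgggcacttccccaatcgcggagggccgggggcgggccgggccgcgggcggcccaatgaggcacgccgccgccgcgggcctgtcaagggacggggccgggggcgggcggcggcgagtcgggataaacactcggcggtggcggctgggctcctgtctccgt
Mxd3 promoter (chr13:55329682-55329981, minus strand): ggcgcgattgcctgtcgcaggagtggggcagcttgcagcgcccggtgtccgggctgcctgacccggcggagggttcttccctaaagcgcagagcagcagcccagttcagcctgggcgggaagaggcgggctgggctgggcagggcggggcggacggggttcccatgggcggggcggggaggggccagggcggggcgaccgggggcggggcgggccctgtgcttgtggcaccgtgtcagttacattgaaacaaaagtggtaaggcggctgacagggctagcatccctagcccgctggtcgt
Measured from the start to the first base of the motif, the E-box lay 3 bases upstream in Max, 40 in Mlx, 123 in Mnt and 219 in Mxd4.

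Between 19517859 and 29019988 counts on genes were obtained per library (median 22899900), and levels are given as CPM, counts scaled to a common library total with TMM factors over the 45 libraries. The medium change was visible in the genes of the amino acid response: Chac1, a glutathione-degrading enzyme, rose between 56.4-fold and 82.7-fold in the deprived lines, and Atf3, Ddit3 and Asns rose in all 4. Of the epithelial markers, the luminal keratin Krt8 was between 216.9 and 1731.2 CPM and Krt18 between 94 and 550 CPM. Epcam and Cdh1, which define most epithelia, did not exceed 0.802 and 0.284 CPM in any library. Under deprivation Krt8 rose by 0.29, 0.2, 0.35 and 0.39 on the log2 scale from MYAZ16.1e through Myc310 and LM1 to LM1-LM. Krt18 (0.1, 0.16, 0.39 and 0.49) and Krt19 (0.33, 0.74, 0.7 and 0.3) rose too. The adjusted p of these keratins was at most 0.012 in edgeR's quasi-likelihood test. Of the markers of other cells, Ptprc (leukocytes), Pecam1 (endothelium) and Sftpc (alveolar cells) did not exceed 0.246 CPM in any library. Cd68 reached 18.7 CPM, Kdr 6.36 CPM and Ager, another alveolar gene, 1.97 CPM. Under deprivation Ager was lower in MYAZ16.1e (-1.12, adjusted p = 0.0133 in the same test), LM1 (-1.14, adjusted p = 0.0317) and LM1-LM (-1.69, adjusted p = 0.00984). In Myc310 it was at -0.51 (adjusted p = 0.312). Of 6 fibroblast genes, Dcn and Lum were at most 0.143 CPM, Col1a1 and Col1a2 at most 3.92 CPM, Col3a1 up to 199.4 CPM and Pdgfra up to 58.3 CPM. The sum of the 6 fibroblast genes in LM1-LM was between 57.5 and 63.1 CPM in the control cultures and between 26.9 and 29.2 CPM in the deprived ones. In LM1 it was between 15 and 17.2 CPM and then between 10.5 and 11.4 CPM, while in MYAZ16.1e and Myc310 it went from at most 9.48 and 2.02 CPM to at least 10.1 and 2.59 CPM. Nearly all of the fall was in Col3a1, from a mean of 56.5 to 24.1 CPM in LM1-LM and of 12.9 to 6.94 CPM in LM1, whereas Col1a1, at a group mean of at most 3.16 CPM, rose in all 4 lines (log2 fold changes 1.65, 2.56, 2.07 and 1.59 from MYAZ16.1e through Myc310 and LM1 to LM1-LM, adjusted p at most 0.000784). Cd68, a lysosomal protein abundant in macrophages, rose in Myc310 (0.36, adjusted p = 0.00232), LM1 (0.47, adjusted p = 0.000133) and LM1-LM (0.24, adjusted p = 0.0213), and was at 0.14 in MYAZ16.1e (adjusted p = 0.313). The part of these markers in the results below was not tested. MYAZ16.1e control replicate 3 has a library number apart from those of its group, and leaving it out changed no call of a member in the deprivation comparisons. The libraries are bulk RNA, in which fewer cells of a kind and less RNA per cell cannot be told apart, and CPM does not measure a change in total RNA per cell.

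Per kilobase of exon, Myc was far above its partners. Over the 45 libraries the median level was 254.1 CPM per kb for Myc, 30.7 for Max, 17.2 for Mlx, 8.56 for Mnt, 7.95 for Mlxip, 7.18 for Mxi1, 4.35 for Mxd4, 3.11 for Mxd3 and 0.676 for Mxd1. Mycn, the paralogue of Myc in neural and embryonic tissue, had no count in 31 libraries and at most 4 counts in any, and was not tested. All other members passed the filter on low counts in every fit. Mxd3 spanned the widest range between groups, 7.35-fold from the lowest to the highest group mean, followed by Mxd1 (3.61-fold) and Myc (3.17-fold), and Mnt the narrowest (1.51-fold).

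Myc itself differed between lines in both media, although some lines overlapped in each medium. In control medium it stood highest in Myc310 (1356.2, 1325.4 and 1323.3 CPM in the 3 cultures) and lowest in MYAZ16.1e (409.1, 425.9 and 429.3 CPM). LM2-LM came next to Myc310 with a mean of 1178.3 CPM, followed by LM1 (1164.7 CPM), whose cultures overlapped those of LM2-LM, then LM1-LM (1074 CPM), LM3 (1009.3 CPM), LM2 (820.1 CPM) and LM3-LM (693.2 CPM). The other MYAZ lines, MYAZ12.3i (590.6 CPM) and MYAZ6.6g (578.5 CPM), overlapped each other, and MYAZ12.3i NDI1 was below both (541.4 CPM). The deprived LM1 cultures overlapped those of MYAZ12.3i in control medium, and the deprived LM1-LM cultures overlapped MYAZ16.1e in either medium.

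**Figure D1:**
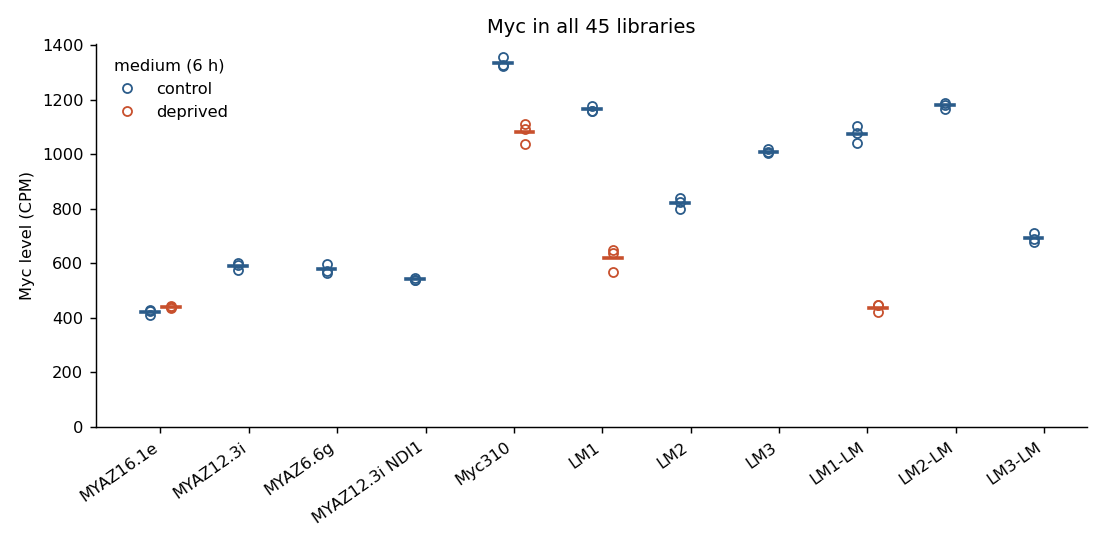
Myc in CPM (linear axis from 0) in each of the 45 libraries, by line; open circles are cultures and short bars group means, blue for control medium and red for 6 h without cysteine and cystine. The deprived LM1-LM cultures (420.2 to 447.2 CPM) reach the level of MYAZ16.1e, where the deprived cultures lie at 435.8 to 443.8 CPM.

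Under deprivation Myc fell in Myc310, LM1 and LM1-LM and not detectably in MYAZ16.1e. In MYAZ16.1e the deprived cultures had 443.8, 441 and 435.8 CPM, all slightly above the control cultures, and the log2 fold change was 0.06 (95% interval -0.01 to 0.13, adjusted p = 0.177 in edgeR's quasi-likelihood test). That difference passed the threshold when replicate 3 of every group was left out (0.07, adjusted p = 0.0341) and when only this line was in the model (adjusted p = 0.0412), against 0.0341 to 0.624 over all 11 alternatives run. In Myc310 the deprived cultures had 1092.2, 1109.8 and 1037 CPM, 80.9% of the control mean (log2 fold change -0.32 ± 0.03 SE, adjusted p = 9.18e-10). LM1 fell to 649.5, 636.3 and 568 CPM from 1159.4, 1158 and 1176.7 CPM, to 53.1% of control (-0.88 ± 0.03, adjusted p = 3.77e-20). LM1-LM fell furthest, to 445.7, 447.2 and 420.2 CPM from 1101.7, 1078 and 1042.4 CPM, to 40.8% of control (-1.26 ± 0.03, adjusted p = 5.79e-24). Control and deprived cultures did not overlap in any of the 4 lines, for which an exact two-sided permutation test of 3 against 3 cultures gives p = 0.1, the smallest it can give.

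The size of the fall differed between lines. Against the response of MYAZ16.1e, that of Myc was lower by a log2 difference of -0.38 ± 0.05 in Myc310 (SE, adjusted p = 2.18e-07 for the interaction contrast). For LM1 the difference was -0.94 ± 0.05 (adjusted p = 4.9e-16), and LM1-LM had the largest, -1.31 ± 0.05 (adjusted p = 1.42e-19). These contrasts share the MYAZ16.1e cultures. Along the line of descent, LM1 fell more than Myc310 by -0.56 ± 0.05 (adjusted p = 5.69e-10) and LM1-LM more than LM1 by -0.38 ± 0.05 (adjusted p = 8.36e-05), a pair of contrasts added after the values were seen. In the comparison of LM1-LM with LM1 only 103 of 13400 genes (0.769%) had responses that differed, and Myc and Mxd4 were among them. That number fell to 4, 5 and 44 genes when replicate 1, 2 or 3 was left out of every group, and the difference in Myc was then -0.34 (adjusted p = 0.017), -0.36 (adjusted p = 0.0614) and -0.43 (adjusted p = 2.29e-06), so that without replicate 2 it missed the threshold. Over 10 alternatives its adjusted p ran from 1e-22 to 0.0614. Each step sets 1 line against 1 line, so that descent and other differences between these lines cannot be told apart.

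Of the 9 members tested, 2 rose and 3 fell in MYAZ16.1e, 1 rose and 8 fell in Myc310, 2 rose and 7 fell in LM1, and 2 rose and 6 fell in LM1-LM. Across all 13400 genes tested, 26.6% rose and 27.1% fell in MYAZ16.1e, 32.8% rose and 33.9% fell in Myc310, 35.8% rose and 35.3% fell in LM1, and 36.5% rose and 35.9% fell in LM1-LM. The median log2 fold change of the members was 0.03, -0.32, -0.47 and -0.34 in that order, beside a median between -0.01 and 0 over all genes tested. Groups did not overlap for 7 of the 9 members in MYAZ16.1e and for all 9 in each of the other lines, where the same held for 58.9%, 69.4%, 73.4% and 74% of all genes tested in the order of the lines above.

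**Figure D2:**
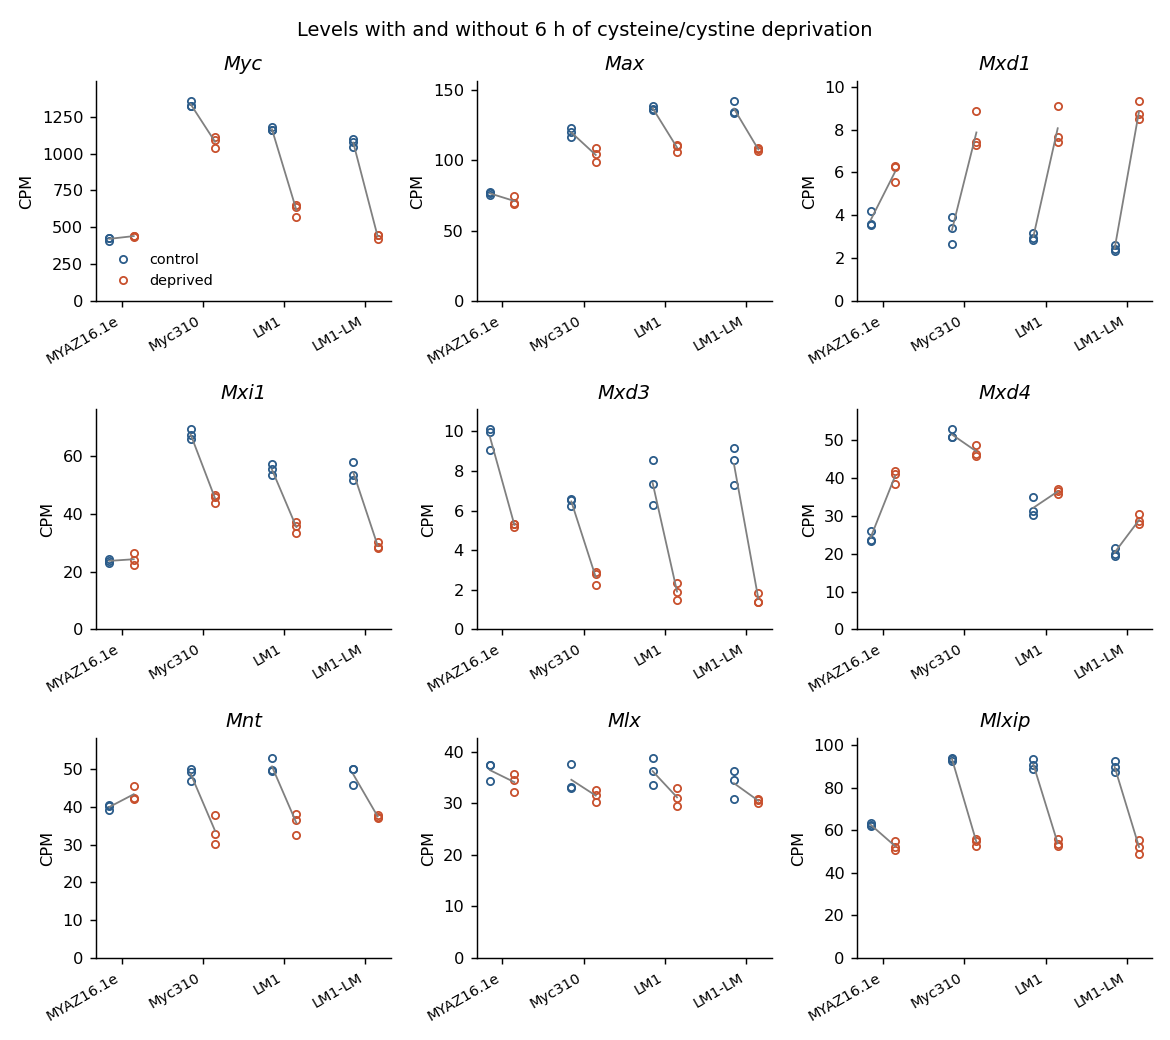
Levels in CPM (linear axes from 0, a separate scale for each gene) of the 9 members that were tested, in the 4 lines with both media; circles are cultures and grey lines join the means of control (blue) and deprived (red) cultures. Myc, Mxi1, Mnt and Mlxip drop in Myc310, LM1 and LM1-LM, Mxd3 drops and Mxd1 climbs in every line, and Mlx hardly moves.

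Max, the obligate partner of MYC, fell in every line but by little. In LM1 it went from 135.9, 136.8 and 138.7 CPM to 110.6, 110.5 and 106.3 CPM, and in LM1-LM from 133.7, 142.2 and 134.5 CPM to 109, 107.8 and 106.5 CPM. The log2 fold changes were -0.29 ± 0.03 (adjusted p = 5.71e-09) and -0.31 ± 0.03 (adjusted p = 2.08e-09), and their intervals (-0.36 to -0.22 and -0.38 to -0.24) did not reach those of Myc in the same libraries (-0.95 to -0.81 and -1.33 to -1.19). In Myc310 the change was -0.22 ± 0.03 (adjusted p = 1.41e-06). The smallest fall was in MYAZ16.1e, from 75.1, 77.3 and 77.1 CPM to 74.5, 69.2 and 69.6 CPM (-0.11 ± 0.04, adjusted p = 0.0109). There replicate 1 had the highest deprived value, just below the lowest control, and the call was lost without replicate 2 (adjusted p = 0.0989) or 3 (adjusted p = 0.0917) of every group, the adjusted p running from 0.00559 to 0.0989 over 11 alternatives. The fall exceeded that of MYAZ16.1e by -0.18 ± 0.05 for LM1 (adjusted p = 0.00307) and by -0.19 ± 0.05 for LM1-LM (adjusted p = 0.00156), and for Myc310 the difference was -0.11 (95% interval -0.21 to 0, adjusted p = 0.0899). Without replicate 1 the LM1 difference was -0.14 (adjusted p = 0.0653), within a range of 5.61e-05 to 0.0653 over 10 alternatives, and without replicate 2 the Myc310 difference was -0.18 (adjusted p = 0.0274) and with upper-quartile scaling -0.14 (adjusted p = 0.0241, range 0.0241 to 0.654). LM1 and Myc310, and LM1-LM and LM1, differed in Max by -0.07 (95% interval -0.17 to 0.03) and -0.01 (-0.11 to 0.09).

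The ratio of Myc to Max RNA per length, for which no test was run, shifted in a direction that depended on the line. MYAZ16.1e had a ratio of 7.3 ± 0.0798 in control medium and 8.21 ± 0.284 when deprived (SD, n = 3 cultures in each medium). Myc310 had 14.8 ± 0.272 and 13.8 ± 0.228, LM1 11.2 ± 0.0469 and 7.49 ± 0.37, and LM1-LM 10.4 ± 0.453 and 5.38 ± 0.137. Control and deprived cultures did not overlap in this ratio in any line. Deprived LM1-LM had 51.7% of its control ratio and MYAZ16.1e 112.5%.

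Mxd1, an antagonist induced when many cell types leave the cycle and differentiate, rose in all 4 lines from the lowest level of the 9 members tested. MYAZ16.1e had 3.56, 4.18 and 3.6 CPM in control medium and 5.54, 6.29 and 6.26 CPM when deprived. In LM1-LM the values were 2.32, 2.41 and 2.61 CPM and then 8.48, 9.33 and 8.74 CPM. Deprived cultures were above control cultures throughout. The log2 fold changes were 0.67 ± 0.13 for MYAZ16.1e (adjusted p = 7.7e-05), 1.23 ± 0.13 for Myc310 (adjusted p = 1.28e-09), 1.46 ± 0.14 for LM1 (adjusted p = 4.83e-11) and 1.89 ± 0.14 for LM1-LM (adjusted p = 1.46e-13). Compared with MYAZ16.1e, the rise was larger by 0.56 ± 0.19 for Myc310 (adjusted p = 0.0171), by 0.79 ± 0.19 for LM1 (adjusted p = 0.000794) and by 1.22 ± 0.19 for LM1-LM (adjusted p = 2.76e-06). The Myc310 difference missed the threshold without replicate 1 (0.61, adjusted p = 0.0599) and without replicate 2 (0.42, adjusted p = 0.186), against 0.0143 to 0.186 over 10 alternatives. Differences between neighbouring lines did not pass, at 0.23 (95% interval -0.16 to 0.62) for LM1 minus Myc310 and 0.43 (0.02 to 0.83, adjusted p = 0.405) for LM1-LM minus LM1. Mxd1 was read from 54 to 222 counts a library.

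Mxd3, an antagonist that unlike the others is transcribed in cycling cells around S phase, fell in all 4 lines, with 95% intervals that lay below those of Myc in each. The control values in LM1-LM were 8.57, 9.18 and 7.32 CPM and the deprived values 1.83, 1.41 and 1.41 CPM, or 18.6% of control. In MYAZ16.1e Mxd3 went from 9.97, 10.1 and 9.07 CPM to 5.16, 5.34 and 5.34 CPM, or 54.4%. The log2 fold changes were -0.88 ± 0.13 (MYAZ16.1e, adjusted p = 8.59e-07), -1.3 ± 0.15 (Myc310, adjusted p = 4.18e-09), -1.91 ± 0.15 (LM1, adjusted p = 2.3e-12) and -2.37 ± 0.16 (LM1-LM, adjusted p = 1.49e-14). LM1 fell by more than MYAZ16.1e (difference -1.03 ± 0.2, adjusted p = 8.2e-05), as did LM1-LM (-1.49 ± 0.21, adjusted p = 2.94e-07), and the difference in Myc310 was -0.42 (95% interval -0.82 to -0.01, adjusted p = 0.0937). LM1 differed from Myc310 by -0.61 ± 0.22 (adjusted p = 0.039), a call lost without replicate 1, 2 or 3 (adjusted p = 0.214, 0.08 and 0.121) and with no filter (0.0735, within 0.0269 to 0.214 over 10 alternatives). The deprived libraries hold as few as 28 counts of Mxd3, and the gene overlaps Prelid1 on the other strand.

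Mxi1, per length the most abundant of the 4 MXD genes in every group but those of MYAZ16.1e, fell in the same 3 lines as Myc. Myc310 went from 66, 67.3 and 69.2 CPM to 45.9, 46.5 and 43.8 CPM. LM1 went from 57.2, 53.3 and 55.5 CPM to 33.3, 37.1 and 35.9 CPM, and LM1-LM from 57.9, 53.6 and 51.7 CPM to 28.1, 30.3 and 28.7 CPM. These were falls to 67.3%, 64% and 53.3% of control (log2 fold changes -0.59 ± 0.05, -0.61 ± 0.05 and -0.87 ± 0.06, adjusted p at most 2.6e-11). In MYAZ16.1e the media overlapped, at 23, 23.7 and 24.5 CPM and 24.1, 22.2 and 26.6 CPM (0.03, 95% interval -0.1 to 0.16, adjusted p = 0.73). The differences from MYAZ16.1e were -0.61 ± 0.08, -0.64 ± 0.08 and -0.9 ± 0.08 in Myc310, LM1 and LM1-LM (adjusted p = 3.41e-07, 1.26e-07 and 1.29e-10). The step from LM1 to LM1-LM was -0.27 (95% interval -0.43 to -0.11, adjusted p = 0.128), which passed with DESeq2 (adjusted p = 0.045) and with no filter (0.0439), in a range of 0.0439 to 0.508.

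Mxd4, an antagonist widespread in resting and differentiated cells, was the member whose direction depended on the line. It rose in MYAZ16.1e from 25.9, 23.5 and 23.4 CPM to 38.4, 41.1 and 41.8 CPM (log2 fold change 0.74 ± 0.05, adjusted p = 1.25e-12) and in LM1-LM from 20, 19.4 and 21.4 CPM to 27.7, 30.3 and 28.5 CPM (0.55 ± 0.06, adjusted p = 9.92e-10). In LM1 it rose by 0.22 ± 0.05 (adjusted p = 0.000768). In Myc310, which had the most Mxd4 in control medium, it fell from 50.7, 52.7 and 50.7 CPM to 45.8, 48.7 and 46.3 CPM (-0.14 ± 0.05, adjusted p = 0.0117), a call lost without replicate 3 (adjusted p = 0.0641, within 0.00274 to 0.0641 over 11 alternatives). The difference from MYAZ16.1e was -0.88 ± 0.07 in Myc310 (adjusted p = 7.18e-11) and -0.52 ± 0.08 in LM1 (adjusted p = 1.2e-06). In LM1-LM it was -0.19 ± 0.08 (adjusted p = 0.0504), on either side of the threshold among 10 alternatives (0.00512 to 0.557). LM1 exceeded Myc310 by 0.36 ± 0.07 (adjusted p = 0.00044) and LM1-LM exceeded LM1 by 0.33 ± 0.08 (adjusted p = 0.0411). The latter was 0.39, 0.19 and 0.42 without replicate 1, 2 or 3 (adjusted p = 0.156, 0.607 and 0.107, of a range from 0.019 to 0.607), and did not pass in any of these.

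**Figure D3:**
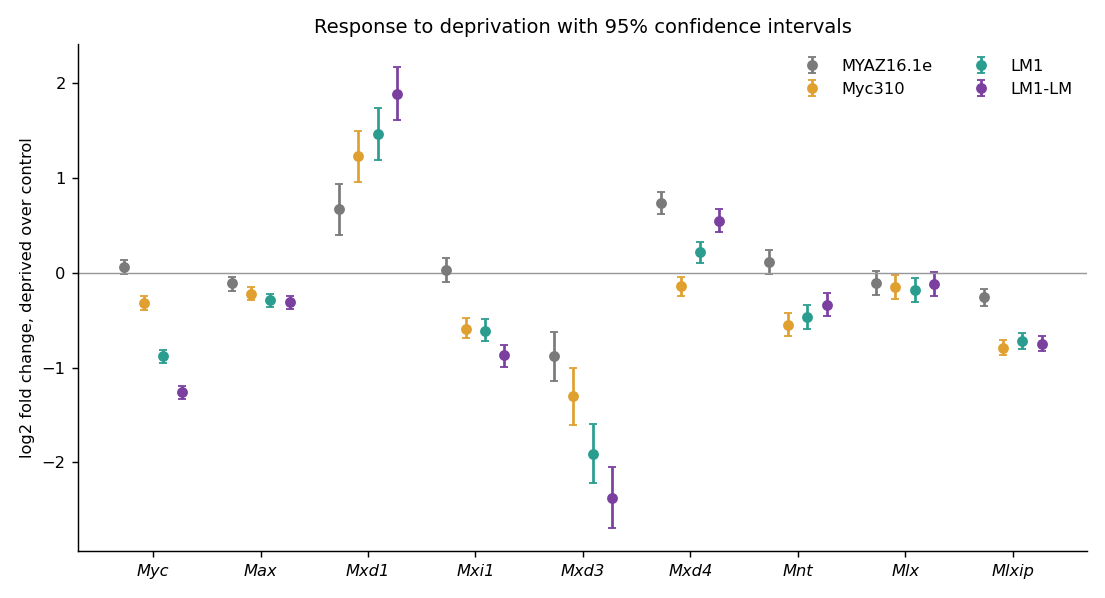
Log2 fold change of deprived over control cultures for each member (vertical axis) in the 4 lines, with 95% confidence intervals from edgeR's quasi-likelihood fit; the grey line marks no change. Myc steps down from 0.06 to -1.26 across the lines and Mxd1 steps up from 0.67 to 1.89, whereas Max and Mlx stay between -0.31 and -0.11 in all of them.

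The 4 MXD genes together, summed per length, changed in make-up in each line. In MYAZ16.1e the sum was 11 ± 0.251 CPM per kb in control medium and 11.4 ± 0.5 when deprived (SD, n = 3), and in LM1-LM it went from 14.2 ± 0.625 to 9.56 ± 0.315. Mxd1 made up 2.44% of the sum in LM1-LM controls and 13.1% after deprivation, Mxd4 16.8% and 35.6%, Mxd3 24.7% and 6.87%, and Mxi1 56% and 44.5%. In MYAZ16.1e the share of Mxd3 went from 37.3% to 19.6% and that of Mxd4 from 26.1% to 41.8%, with Mxi1 at 31.7% and 31.2%. The Mxd3 share went from 20.2% to 7.07% in LM1, where the sum went from 15.4 to 11.4 CPM per kb. In Myc310 it went from 14.2% to 7.76% and the Mxd4 share from 31.6% to 38.4%, of a sum that went from 19.1 to 14.4 CPM per kb and with Mxd4 itself lower. No test was run on these shares.

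**Figure D4:**
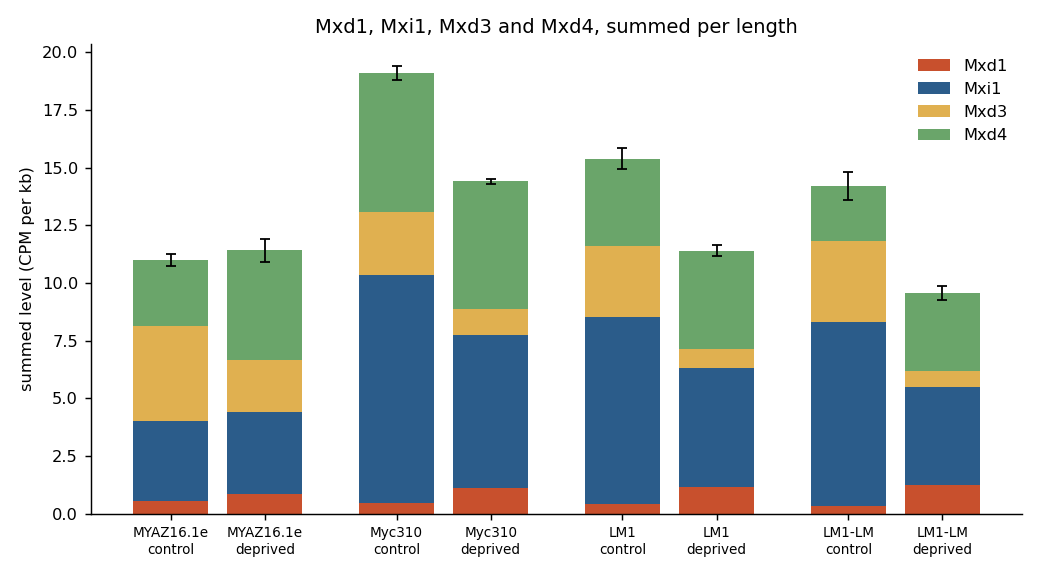
Summed level of Mxd1, Mxi1, Mxd3 and Mxd4 in CPM per kb of exon (linear axis from 0), split by gene, in control and deprived cultures; bars are means of 3 cultures and error bars the SD of the sum. The Mxd3 segment shrinks in every line, from 24.7% to 6.87% of the sum in LM1-LM, and the Mxd1 segment grows, from 2.44% to 13.1% there.

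The ratio of Myc to the MXD genes did not move one way. Per length, Myc exceeded Mxd1 1145.6-fold in LM1-LM controls and 128.9-fold after deprivation, 11.2% of the control ratio, and the corresponding figures were 19.8% in LM1, 33.6% in Myc310 and 65.4% in MYAZ16.1e. The Myc to Mxd4 ratio was at 28.5%, 46.6%, 88.5% and 62.6% of control in LM1-LM, LM1, Myc310 and MYAZ16.1e. Relative to Mxd3, Myc was at 220.8%, 209.7%, 200.4% and 191.7% of control in the same order. Control and deprived cultures did not overlap in any of these 12 ratios. For Mxi1 the figures were 76.4%, 83.1% and 120.2% in LM1-LM, LM1 and Myc310, without overlap, and 102.6% with overlap in MYAZ16.1e.

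Mnt, a constitutively expressed antagonist, fell in the same 3 lines as Myc. In Myc310 the values went from 50.1, 49.2 and 46.9 CPM to 30.1, 32.9 and 37.9 CPM (log2 fold change -0.55 ± 0.06, adjusted p = 4.1e-09), in LM1 from 52.9, 49.4 and 49.7 CPM to 38.2, 32.5 and 36.5 CPM (-0.47 ± 0.06, adjusted p = 7.2e-08) and in LM1-LM from 50, 50 and 45.7 CPM to 37.4, 37.1 and 37.8 CPM (-0.34 ± 0.06, adjusted p = 1.19e-05). MYAZ16.1e had 40.2, 40.4 and 39.2 CPM and then 42.1, 42.4 and 45.4 CPM, without overlap and with a log2 fold change of 0.11 (95% interval -0.01 to 0.24, adjusted p = 0.123). Each of the 3 lines differed from MYAZ16.1e, by -0.66 ± 0.09, -0.58 ± 0.09 and -0.45 ± 0.09 (adjusted p at most 4.74e-05). LM1 minus Myc310 was 0.08 (95% interval -0.1 to 0.26) and LM1-LM minus LM1 0.13 (-0.05 to 0.31). The Myc to Mnt ratio per length was 39.2 in LM1 controls and 29.6 after deprivation, and 37.7 and 19.9 in LM1-LM, without overlap, and overlapped between media in MYAZ16.1e and Myc310.

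Mlx, the partner of MLXIP, was the least responsive member. Its log2 fold changes were -0.11 ± 0.06 in MYAZ16.1e (adjusted p = 0.153), -0.15 ± 0.06 in Myc310 (adjusted p = 0.0339), -0.18 ± 0.06 for LM1 (adjusted p = 0.0122) and -0.12 ± 0.06 for LM1-LM (adjusted p = 0.0998). Single replicate numbers changed each of these calls: without replicate 1 the Myc310 value was -0.09 (adjusted p = 0.345), without replicate 3 the LM1 value was -0.1 (0.216) and the LM1-LM value -0.17 (0.0304), and without replicate 2 the MYAZ16.1e value was -0.18 (0.0465). With upper-quartile scaling LM1-LM passed (-0.2, adjusted p = 0.0066), and with its line alone in the model Myc310 did not (-0.14, adjusted p = 0.0638). Over 11 alternatives the adjusted p reached from 0.0465 to 0.636, 0.0125 to 0.345, 0.000698 to 0.216 and 0.0066 to 0.407 in the order of the lines above. No difference between lines passed, the intervals being -0.23 to 0.13, -0.25 to 0.11 and -0.19 to 0.17 for Myc310, LM1 and LM1-LM minus MYAZ16.1e.

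Mlxip fell in every line and to nearly the same level. From 62, 62.6 and 63.2 CPM in MYAZ16.1e, 94, 93.6 and 92.8 in Myc310, 88.6, 93.7 and 90.8 in LM1 and 87.3, 92.4 and 89.7 in LM1-LM, it went to group means between 52.2 and 54.5 CPM. The log2 fold changes were -0.26 ± 0.04 (adjusted p = 4.54e-06), -0.79 ± 0.04 (5.78e-17), -0.72 ± 0.04 (5e-16) and -0.75 ± 0.04 (1.56e-16). The fall was larger than in MYAZ16.1e by -0.53 ± 0.06, -0.46 ± 0.06 and -0.49 ± 0.06 (adjusted p at most 8.19e-08). Unlike Myc it did not differ detectably between LM1 and Myc310 (0.07, 95% interval -0.05 to 0.19) or between LM1-LM and LM1 (-0.03, -0.15 to 0.09). Txnip and Arrdc4, the arrestin-family targets of MLXIP with MLX, moved the other way: Txnip rose by 1.13, 1.06, 1.36 and 1.61 on the log2 scale and Arrdc4 by 1.38, 2.19, 2.31 and 2.59 from MYAZ16.1e through Myc310 and LM1 to LM1-LM (adjusted p at most 3.5e-17).

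Counted over the interaction contrasts, the responses of 6 of the 9 members for Myc310, 8 for LM1 and 7 for LM1-LM differed from those in MYAZ16.1e, where 40.3%, 52.2% and 54.8% of all genes tested did. In these contrasts Mxd1 was the member that moved up, and the others called moved down. Between LM1 and Myc310 the responses of 3 members differed (Myc, Mxd3 and Mxd4) where 24.5% of all genes did, and between LM1-LM and LM1 those of 2 where 0.769% did. The share of higher values among all genes called was 51.5% for LM1 minus MYAZ16.1e, 51.7% for LM1-LM minus MYAZ16.1e and 59.3% for LM1 minus Myc310 with TMM scaling, and 41%, 41.6% and 42.7% with upper-quartile scaling, under which no difference of a member changed sign.

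Among related genes outside the 10, Mga, which encodes a MAX partner of the non-canonical polycomb complex, rose in all 4 lines (log2 fold changes 0.23, 0.18, 0.31 and 0.4, adjusted p at most 8.73e-05), and Mlxipl and Mycl did not pass the filter. A list of 12 coactivators and corepressors of the network had 3, 3, 5 and 4 members higher and 5, 6, 7 and 6 lower from MYAZ16.1e through Myc310 and LM1 to LM1-LM, beside background shares of 26.6%, 32.8%, 35.8% and 36.5% higher and 27.1%, 33.9%, 35.3% and 35.9% lower. Among its genes whose mean log2 CPM reached 3, the extremes in LM1 were Kat5 (TIP60 acetyltransferase, 0.98) and Zbtb17 (MIZ1, through which MYC represses genes, 0.3) at the top and Kat2a (GCN5 acetyltransferase, -1.02) and Ruvbl1 (a helicase-like subunit of the TIP60 complex, -1.02) at the bottom. A list of 12 regulators of MYC protein turnover had 3, 5, 5 and 6 higher and 5, 6, 5 and 4 lower against the same background shares. With the same limit on expression, Aurka (1.14) and Gsk3b (0.99) were highest and Skp2 (-2.31) and Usp28 (-1.09) lowest in LM1. Aurka, a mitotic kinase, did not pass in MYAZ16.1e (-0.02, adjusted p = 0.578).

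Genes that MYC is known to activate were lower in most cases. Of 26 such genes, 19 fell and 2 rose in MYAZ16.1e, 18 fell and 6 rose in Myc310, and 18 fell and 7 rose in LM1 and in LM1-LM, beside 27.1%, 33.9%, 35.3% and 35.9% of all genes tested that fell in these lines. Their median log2 fold change was -0.25, -0.35, -0.39 and -0.37. Among those whose mean log2 CPM reached 3, the largest falls in LM1 were those of Ppat (the first enzyme of purine synthesis, -1.55) and Nolc1 (a nucleolar phosphoprotein, -1.12), and in MYAZ16.1e these were -0.57 and -0.47. Shmt2 and Odc1 rose in LM1 (1.52 and 0.5). Shmt2, of mitochondrial serine metabolism, is also a target of ATF4 in the amino acid response, and it rose in MYAZ16.1e by 1.15.
Of 6 genes that MYC is known to repress, 5 rose in MYAZ16.1e and 4 rose and 1 fell in each of the other lines, beside 26.6%, 32.8%, 35.8% and 36.5% of all genes tested that rose. The medians were 1.31, 0.75, 0.98 and 1, the last 3 with Cdkn2b, which has no count there, entered at 0. Gadd45a rose by 6.74 and Ndrg1 by 4.11 in LM1 on the log2 scale, and Cebpa fell by 0.17. Gadd45a and Ndrg1 also belong to the stress response of ATF4. Cdkn2b, the CDK inhibitor p15, was listed at 0 in Myc310, LM1 and LM1-LM in both media and rose in MYAZ16.1e (0.91, adjusted p = 3.3e-08). These lists were chosen with earlier results of the series known and were described by counts only.

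In control medium the network was compared between subtypes, in which origin and metastatic potential cannot be told apart. In the model with subtype only, the members that differed from MYAZ numbered 5 of 9 for Myc310, 5 for LM and 7 for LM-LM, where 50.9%, 60.8% and 62.8% of the 13795 genes tested did. That model takes cultures of a line as separate samples. With counts summed per line, 2 members differed in LM (Myc and Max) and 3 in LM-LM (Myc, Max and Mlxip), of 23.6% and 26.4% of 16017 genes. Markers of other cells moved with subtype: the 4 endothelial genes summed to between 3.52 and 6.56 CPM in MYAZ and to at most 0.911 CPM in the Myc310 family, and the 4 leukocyte genes, nearly all of it Cd68, to between 4.13 and 6.31 CPM and between 8.76 and 18.8 CPM. The fibroblast sum was between 7.16 and 64.7 CPM in MYAZ, at most 2.02 in Myc310, between 15 and 123.6 in LM and between 33.6 and 216.3 in LM-LM, and the median log2 difference of the 4 fibroblast genes tested was -3.59, -1.78 and -2.08. The 8 epithelial genes summed to between 333.9 and 1161.8 CPM in MYAZ and between 1010.5 and 2379.8 CPM in the Myc310 family. Of the 6 of them tested, 2 were higher and 3 lower in each subtype. The alveolar gene Ager was lower, at -1.07, -1.1 and -1.24 on the log2 scale in Myc310, LM and LM-LM. The part of these markers in the differences below was not tested. MYAZ12.3i control replicate 2 and MYAZ16.1e control replicate 3 have library numbers apart from their groups, and of the members' calls only that of Mxd1 in LM-LM was lost without the former (-0.36, adjusted p = 0.0584) and none without the latter.

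Myc was higher in every line of the Myc310 family than in any MYAZ line. The mean over lines was 530.1 ± 94.4 CPM in MYAZ (SD, n = 3 lines), 998 ± 172.6 CPM in LM and 981.9 ± 255.3 CPM in LM-LM, beside 1334.9 CPM in Myc310. Myc310 exceeded MYAZ by 1.33 ± 0.15 on the log2 scale (SE, adjusted p = 2.34e-08), LM by 0.91 ± 0.12 (adjusted p = 7.25e-08) and LM-LM by 0.87 ± 0.12 (adjusted p = 1.53e-07). Summing the counts of each line gave adjusted p = 0.0153 in LM, 0.0165 in LM-LM and, with its spread taken from the other subtypes, 0.0233 in the lone line Myc310. The exact two-sided permutation test over 3 against 3 line means gave p = 0.1, the smallest possible, for LM and for LM-LM. Over 16 alternatives the difference of Myc from MYAZ was 1.18 to 1.67 in Myc310, 0.77 to 1.46 in LM and 0.73 to 1.34 in LM-LM. No LM or LM-LM line exceeded Myc310.

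Max was higher with Myc, with line means of 90.4 ± 12.1 CPM for MYAZ, 130.3 ± 6.62 for LM and 137.6 ± 13.9 for LM-LM (SD, n = 3 lines) beside 119.9 CPM for Myc310. The differences from MYAZ were 0.4 ± 0.08, 0.53 ± 0.06 and 0.59 ± 0.06 on the log2 scale, and with counts summed per line the adjusted p was 0.12, 0.00884 and 0.00505. Mlxip was also higher without overlap of line means, by 0.53, 0.31 and 0.44, with adjusted p of 0.114, 0.124 and 0.0413 when summed per line. Mxi1 was higher by 0.76, 0.56 and 0.49 (adjusted p between 0.00041 and 0.00151), but MYAZ16.1e, at 23.7 CPM, was far below MYAZ12.3i (48.9 CPM) and MYAZ6.6g (46.1 CPM), and with counts summed per line the adjusted p was 0.162, 0.11 and 0.141. Without MYAZ16.1e the Mxi1 differences were 0.5, 0.3 and 0.23, and among the 4 lines cultured in both media they were 1.52, 1.21 and 1.18. Mlx was higher in LM (0.35) and LM-LM (0.36) with overlapping line means (adjusted p = 0.115 and 0.0975 summed per line), and when the model held only the 4 lines cultured in both media these differences had the opposite sign, -0.02 and -0.11.

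Of the antagonists, Mnt did not pass the threshold in any subtype (0.2, -0.01 and -0.09, adjusted p at least 0.152). Among the 4 lines cultured in both media it was higher than in MYAZ16.1e by 0.3, 0.33 and 0.27 (adjusted p = 1.01e-05, 2.99e-06 and 2.96e-05). Mxd3 was lower in Myc310 (-0.59, adjusted p = 0.00433), a call lost without replicate 2 (-0.51, adjusted p = 0.0816) and summed per line (adjusted p = 0.277). Mxd1 and Mxd4 were lower in LM-LM (-0.38, adjusted p = 0.0362, and -0.44, adjusted p = 0.011). Both were lost with counts summed per line (adjusted p = 0.405 and 0.296) and without MYAZ12.3i (0.151 and 0.113) or MYAZ6.6g (0.117 and 0.108). Leaving out replicate 1 or 2 or the filter ended the call for Mxd1 (adjusted p = 0.0958, 0.318 and 0.0862) and leaving out replicate 1 or 3 that for Mxd4 (0.0771 and 0.0535). The adjusted p ranged from 0.00267 to 0.405 for Mxd1 and from 3.29e-05 to 0.296 for Mxd4 over 16 alternatives. Mxd4 in Myc310 (0.45, adjusted p = 0.0659) passed as higher without MYAZ12.3i (0.59, adjusted p = 0.028), without MYAZ6.6g (0.58, adjusted p = 0.0306) and among the 4 lines cultured in both media (1.1, adjusted p = 9.87e-13). In LM, Mxd4 (-0.19) passed as lower without MYAZ16.1e (-0.42, adjusted p = 0.00465) and as higher among those 4 lines (0.4, adjusted p = 8.31e-06). Mxd3 did not pass in LM (-0.15, adjusted p = 0.252) or LM-LM (-0.25, adjusted p = 0.0587) in the reported fit. Without MYAZ12.3i, it passed as lower in LM (-0.28, adjusted p = 0.0397) and LM-LM (-0.37, adjusted p = 0.00617). It also passed as lower in LM among the 4 lines cultured in both media (-0.4, adjusted p = 0.00372). In LM-LM it passed with a minimum of 10 counts (adjusted p = 0.0415) and with upper-quartile scaling (adjusted p = 0.044). Without MYAZ16.1e, Mxd1 passed as lower in Myc310 (-0.56, adjusted p = 0.0472) and Mlx as higher there (0.29, adjusted p = 0.029).

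**Figure D5:**
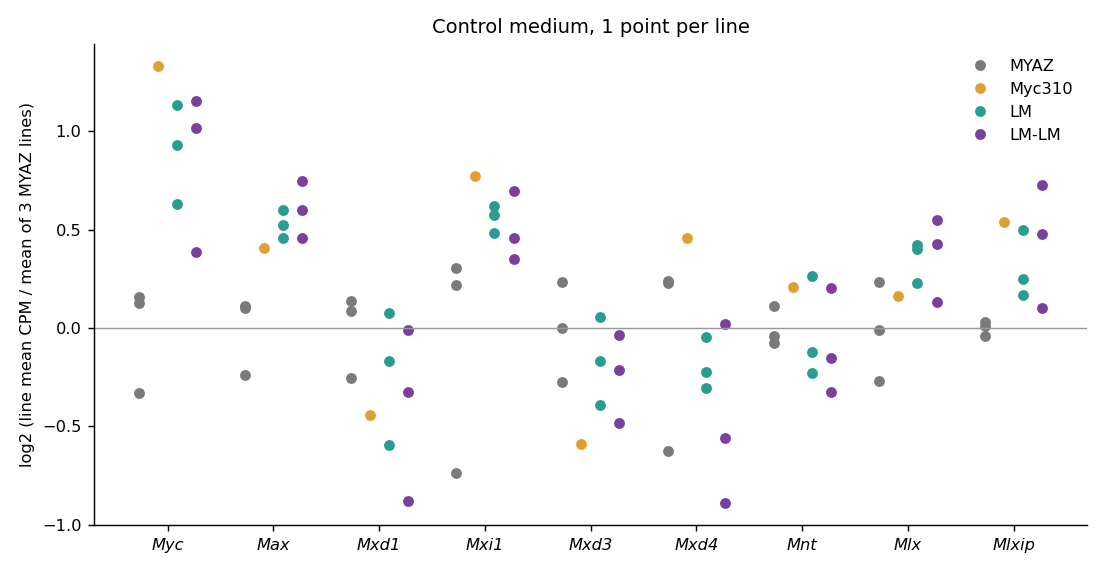
Line means of each member in control medium as the log2 of their ratio to the mean of the 3 MYAZ lines; each point is 1 line (3 cultures), with MYAZ in grey, Myc310 in yellow, LM in green and LM-LM in purple. Myc, Max, Mlxip and Mxi1 lie above every MYAZ line in all 7 lines of the Myc310 family, whereas Mnt, Mxd1, Mxd3 and Mxd4 are mixed.

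Over the 11 control groups the mean log2 CPM of Myc correlated across groups with that of Mlxip (Pearson r = 0.907), Max (0.894) and Mxi1 (0.841), and inversely with Mxd3 (-0.718) and Mxd1 (-0.645). With the 4 deprived groups added, r was 0.768, 0.801, 0.853, 0.144 and -0.525 in the same order. These are descriptions, since 7 of the lines share an origin and points share their lines. Of 9090 genes whose mean log2 CPM reached 3, the 5 most like Myc over the 15 groups were Scap (r = 0.938), Gne (0.935), Irx2 (0.93), Zdhhc1 (0.929) and Kdsr (0.92), and Mxi1 was the member nearest to Myc.

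NDI1 lets cells oxidise NADH without complex I, and its line was compared with its parent MYAZ12.3i. Myc had 539, 547.6 and 537.7 CPM in MYAZ12.3i NDI1 and 601.8, 575.6 and 594.2 CPM in MYAZ12.3i, a log2 difference of -0.13 ± 0.03 (adjusted p = 0.00449) with no overlap. Without replicate 1 it was -0.11 (adjusted p = 0.0833, of a range from 2.66e-05 to 0.0833). Max (-0.15, adjusted p = 0.0341) and Mxd4 (-0.17, adjusted p = 0.0181) were lower too, where 17.4% of 12841 genes differed. No member passed as higher in this fit. Mlx, at 0.17 without overlap (adjusted p = 0.0506), passed in 5 of 11 alternatives (0.0252 to 0.284). Mxi1 (-0.15) passed as lower in 3 of 11 (0.0258 to 0.229) and Mlxip (-0.12) in 1 (0.0324 to 0.331). Without MYAZ12.3i control replicate 2 no call of a member changed, while 1480 genes differed in place of 2236. The Max call was lost without any single replicate number (adjusted p = 0.163, 0.108 and 0.0533, range 0.0023 to 0.163), and that of Mxd4 without replicate 1 or 3 (0.122 and 0.0888) and with DESeq2 (0.0813, range 0.0136 to 0.122). Each arm is 1 line, so that the transgene cannot be told apart from other differences between these cultures.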

How the data were processed

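Polyadenylated RNA of 45 cultures in 15 groups of 3 was sequenced from both ends with a directional kit. STAR alignment and RSEM quantification were run by the authors, who deposited a table of unnormalized, whole-number counts for each gene. The genome build named in the submitters' processing notes is GRCm38, and the annotation release is not given in the sources used here. Rows without a gene symbol (7725) held 1.18% of counts.

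Groups were taken from the sample labels. Computations used R 4.3.3. Libraries were scaled with TMM, filtered with filterByExpr and tested with edgeR 4.0.16 (quasi-likelihood, two-sided, Benjamini-Hochberg over all genes tested, threshold 0.05). The deprivation model held 24 libraries in 8 groups, with the differences between responses as interaction contrasts, the subtype model the 30 control libraries with subtype only, and the NDI1 model 6 libraries. The LM1 deprivation, LM against MYAZ and NDI1 contrasts were checked on simulated data without line effects. That check does not cover the interaction contrasts or the dependence between cultures of a line. CPM uses TMM factors over all libraries, log2 CPM a prior count of 2, and levels per length the union of exons in the mouse release GENCODE M21, which holds 28407 of the listed identifiers. The floor was set at 3 counts in a library, which is 0.102 to 0.155 CPM. Alternatives were RLE and upper-quartile scaling, DESeq2 1.42.0, no filter, a minimum of 10 counts throughout, a block on replicate number, fewer or more lines in the model, counts summed per line, and leaving out lines or replicate numbers.

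The members and gene lists were chosen with earlier results of these data known. The genes named are the 10 members, at most 4 of each list by their extreme log2 fold change in LM1 (mean log2 CPM at least 3), Chac1, Atf3, Ddit3 and Asns as checks of the medium, and the 5 genes most like Myc over the 15 groups. Where a further marker or Aurka in another line is named, it follows from its list.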

Additional observations from a re-analysis of the deposited data

Results flagged for a closer look

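These responses to deprivation differed between lines in the interaction contrasts of edgeR's quasi-likelihood test. Against MYAZ16.1e, the log2 differences in Myc310 were -0.38 for Myc, 0.56 for Mxd1, -0.61 for Mxi1, -0.88 for Mxd4, -0.66 for Mnt and -0.53 for Mlxip. Those in LM1 were -0.94 for Myc, -0.18 for Max, 0.79 for Mxd1, -0.64 for Mxi1, -1.03 for Mxd3, -0.52 for Mxd4, -0.58 for Mnt and -0.46 for Mlxip. In LM1-LM they were -1.31 for Myc, -0.19 for Max, 1.22 for Mxd1, -0.9 for Mxi1, -1.49 for Mxd3, -0.45 for Mnt and -0.49 for Mlxip. These 3 sets share the MYAZ16.1e cultures. LM1 differed from Myc310 by -0.56 in Myc, -0.61 in Mxd3 and 0.36 in Mxd4, and LM1-LM differed from LM1 by -0.38 in Myc and 0.33 in Mxd4. With 3 cultures in each group, no sample was tested for standing apart from its group.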

How the results depend on the processing

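The falls of Myc in Myc310, LM1 and LM1-LM and the changes of Mxd1 and Mxd3 in all 4 lines passed the threshold in the same direction under all 11 alternatives run. Myc in MYAZ16.1e, 0.06 in the reported fit, was 0.06 with adjusted p = 0.0412 when only this line was in the model and 0.03 to 0.07 with replicates left out. The difference of Myc between LM1-LM and LM1 was -0.43 to -0.34 with replicates left out, and in NDI1 Myc was -0.16 to -0.11. With counts summed per line, 3788 genes differed in LM, 4226 in LM-LM and 1429 in Myc310, the last added after the data were seen. Without single replicate numbers, NDI1 had 898 to 1326 genes called instead of 2236, DESeq2 called 1514, and 1480 were called without MYAZ12.3i control replicate 2, left out after the data were seen. Between LM1-LM and LM1, 218 genes differed with no filter and 180 with DESeq2 instead of 103. Between LM1 and Myc310, 2035 and 2168 genes differed without replicate 2 or 3 instead of 3278. When only the 4 lines cultured in both media were in the model, the sign turned for Mlx in LM (-0.02) and LM-LM (-0.11), Mnt in LM (0.33) and LM-LM (0.27) and Mxd4 in LM (0.4); the cause was not tested.

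The same replicate numbers did not deviate together: across groups the correlation of deviations was -0.388 to 0.301, and 5 of 15 libraries deviated most like the one with their own number. With the replicate block, Myc was -0.88 in LM1 and -1.26 in LM1-LM, 9494 genes differed in LM1 and 9661 in LM1-LM, and the calls that moved were Mlx (0.18, adjusted p = 0.043) and Mxi1 (-0.15, adjusted p = 0.0258) in NDI1. At this depth Mycn and Mlxipl could not be compared.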
